A study of Mus musculus with 4 samples.

Results

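Surface proteins of T cells were followed here at the transcript level. The genes are 7 tetraspanins (*Cd9*, *Cd37*, *Cd53*, *Cd63*, *Cd81*, *Cd82* and *Cd151*) and 2 further activation-related surface genes, *Cd44* and *Cd69*. They were chosen by gene symbol, and all 9 were found among the 1681 genes that the tables of all 4 libraries reach. Thy1.1+ Pmel-1 CD8+ T cells, which carry a transgenic receptor for a melanoma antigen on the C57BL/6 background, were cultured for 5 days as Tc1 cells or Tc9 cells. By the study's methods, cells were primed with antibodies against CD3 and CD28 or, in some experiments, with the antigen peptide. During priming, Tc1 cells received recombinant human IL-2, and Tc9 cells received IL-4, TGF-β and an antibody against IFN-γ. By the study's methods, both then spent the last days of culture in medium with IL-2. Tc1 cells thus stayed in the cytokine they had already received, whereas Tc9 cells no longer had their polarizing additions. The cells were injected into Thy1.2+ mice with subcutaneous B16 melanomas 10 days old. By the methods of the tumor model, these mice also received cyclophosphamide, peptide-pulsed dendritic cells and IL-2. The transferred cells were sorted from the tumors 14 days later, and RNA from several mice was pooled into 2 libraries per group. How the mice were divided among the pools, and their age, are not given in the sources used here, and p-values measure only the spread between these pools.

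Tetraspanins are small proteins that cross the membrane repeatedly and gather integrins, immunoglobulin-family proteins and proteases into membrane patches. CD37 and CD53 are found mainly on leukocytes, CD81 and CD82 act as costimulators of T cells, CD9 and CD151 bind integrins and their neighbors, and CD63 sits in late endosomes, lysosomes and exosomes. CD44 binds hyaluronan and stays high on T cells that have met antigen. CD69 appears early after activation and draws the exit receptor S1PR1 off the cell surface, which keeps T cells in tissue.

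Of the 9 genes, 3 rose and 2 fell in Tc9 cells compared with Tc1 cells. *Cd69* had the largest change of the 9, and *Cd9* also fell. *Cd37*, *Cd81* and *Cd151* rose. The remaining 4, *Cd44*, *Cd53*, *Cd63* and *Cd82*, did not pass the test. These counts depended on the libraries used, as did the counts over all genes tested. Over all 1284 genes tested with edgeR's quasi-likelihood test, 34.1% passed an adjusted p of 0.05, 17.4% as higher and 16.7% as lower in Tc9. The 2 groups of libraries did not overlap for 7 of the 9 genes, against 70.4% of all genes tested. On the log2 scale the 9 fold changes had a median of 0.10, against 0.0014 for all genes tested. Their sizes, sign ignored, had a median of 0.58, against 0.30.

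**Figure D1:**
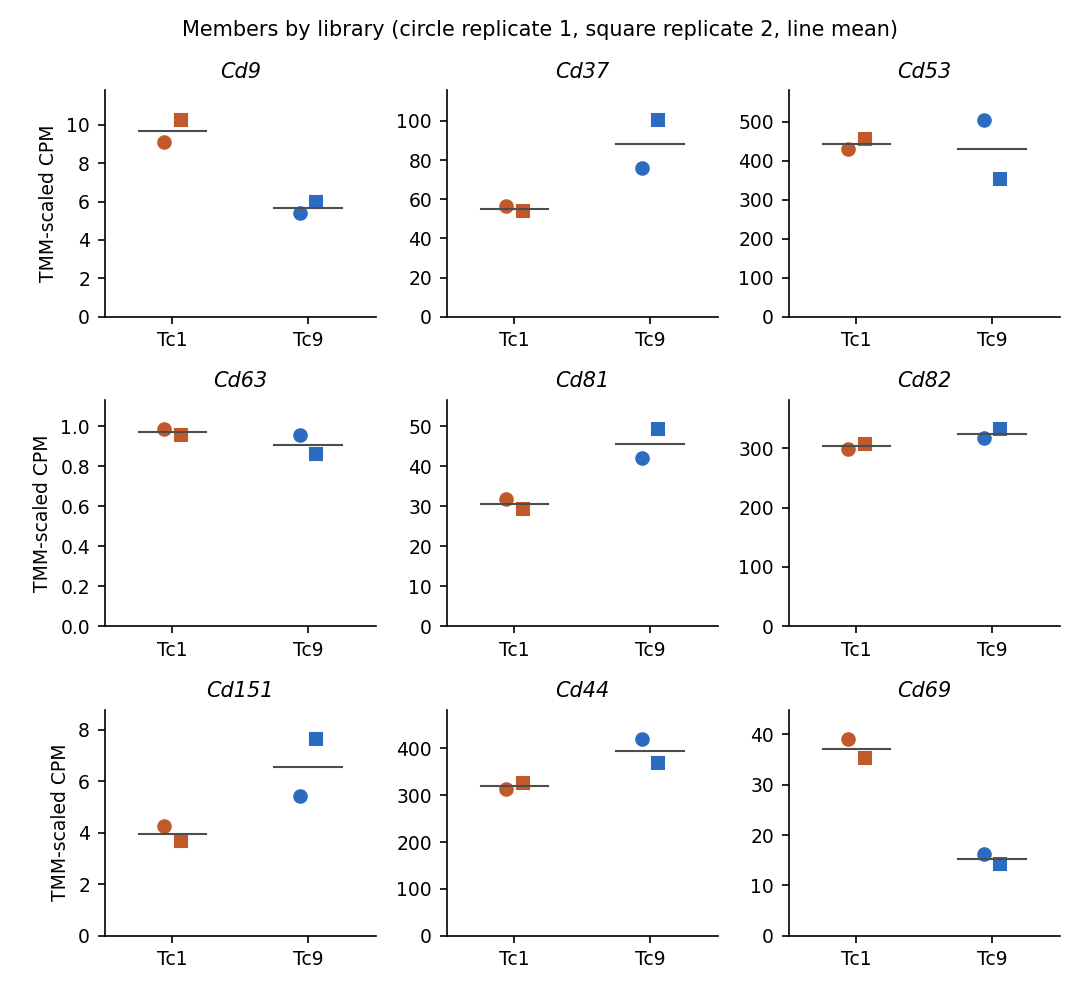
TMM-scaled CPM (counts scaled to a common library depth, y axis from 0) of the 9 genes in each Tc1 and Tc9 library, with circles for replicate 1, squares for replicate 2 and a line at the group mean. The groups are apart for 7 genes and overlap for *Cd53* and *Cd63*.

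The depth of the libraries lay between 30822953 and 31927162 counts, so counts can be read almost directly against each other. The T cell identity of the sort was clear in the counts. *Cd8a* lay between 19330 and 21622 counts while *Cd4* lay between 45 and 58. Of the 12 T cell markers, 10 were tested over all 4 libraries, and they moved in both directions. *Cd3e* (log2 fold change 0.73, edgeR adjusted p = 0.0108) and *Cd3g* (0.49, edgeR adjusted p = 0.00995) rose, *Cd5* (-0.61, edgeR adjusted p = 0.00397) and *Cd2* (-0.44, edgeR adjusted p = 0.0107) fell, and 6 did not pass. B cells also carry much CD37, CD53, CD81 and CD82. The B cell markers *Cd79a*, *Ms4a1* and *Cd22* lay at 1 to 12 counts in the 4 libraries, and *Pax5* was at 0 in both replicate 2 libraries. *Cd79b* was higher, at 155 counts in Tc1 replicate 2 against 380 and 473 in Tc9 cells. Of the 14 myeloid markers, 5 were reached by all 4 tables. *Cd68*, a lysosomal protein abundant in macrophages, numbered 226 and 221 counts in Tc1 against 358 and 439 in Tc9 cells, and *Cd14*, *C1qa*, *C1qb* and *C1qc* had at most 1 count in any library. The summed level of these 5 was 6.36 and 6.24 FPKM in Tc1 and 10.3 and 12.7 FPKM in Tc9 cells, nearly all of it *Cd68*. Of the 13 myeloid markers that both replicate 2 tables reach, 9 lay at or under 3 counts in both. The erythroid markers *Hbb-bt* and *Alas2*, which all 4 tables reach, summed to 1.08 and 0.32 FPKM in Tc1 and 0.23 and 0.37 FPKM in Tc9 cells. The platelet marker *Itga2b* stood at 67 counts in Tc1 replicate 2 against 62 and 71 in Tc9 cells, and *Pf4*, *Ppbp*, *Gp9* and *Gp1bb* lay at 0 to 4 counts in the libraries that reach them. The part of *Cd68* and *Cd79b* positive cells in the results below was not tested. Of the melanoma markers, *Dct*, *Tyrp1* and *Sox10* were at 0 in every library that reaches them, and *Pmel* had 70.0 and 117 counts in the Tc1 and Tc9 replicate 2 libraries. In bulk samples, fewer cells of a kind and less RNA per cell cannot be told apart.

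*Cd69* (gene identifier 12515, chromosome 6, 129267324 to 129275375, minus strand of GRCm38) numbered 1232 and 1108 counts in Tc1 against 511 and 449 in Tc9 cells. Both Tc9 libraries were far below both Tc1 libraries and close to each other. The log2 fold change was -1.28 (± 0.13 SE, 95% interval -1.57 to -0.996, edgeR adjusted p = 6.23e-05), a level 2.43-fold higher in Tc1 cells. *Cd69* ranked 103 of 1284 genes by the size of its change. With any single library left out it stayed between -1.38 and -1.19, and each of these fits passed the threshold. The 3 genes whose pattern over the 4 libraries lay closest to that of *Cd69*, by distance of the centered log2 CPM, were *Cavin3* (0.028), *Ly6a* (0.11) and *B3gnt5* (0.12).

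Of the 14 genes listed for CD69 and tissue retention, only *Prdm1* was tested over all 4 libraries. *Prdm1*, which encodes the transcription factor Blimp-1 of effector and resident T cells, numbered 336 and 359 counts in Tc1 against 89 and 108 in Tc9 cells, and it fell (log2 fold change -1.81 ± 0.17 SE, edgeR adjusted p = 3.96e-05). *S1pr1*, the receptor that CD69 removes from the surface, stood at 1075 counts in Tc1 replicate 2 against 1212 and 1271 in Tc9 cells. *Klf2*, the factor that drives *S1pr1* transcription, stood at 88 counts in Tc1 replicate 2 against 120 and 121 in Tc9 cells. *Itgae*, which encodes CD103, the αE chain of an integrin that binds E-cadherin, was far apart. It stood at 59 counts in Tc1 replicate 2 against 4599 and 4619 in Tc9 cells, a log2 ratio between the replicate 2 libraries of 6.29 (95% counting interval 5.92 to 6.69). The amino acid transporter subunits that associate with CD69 were lower in Tc9, with 24772 and 18468 counts of *Slc7a5* in the Tc1 and Tc9 replicate 2 libraries. *Slc3a2* stood at 12298 counts in Tc1 replicate 2 against 6040 and 7270 in Tc9 cells. The table of Tc1 replicate 1 does not reach these genes, *Prdm1* excepted, so these differences have no test. Of 4072 genes outside the range of all 4 libraries with at least 100 counts in a replicate 2 library, 7.78% were at least 2-fold higher and 3.44% at least 2-fold lower in Tc9.

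*Cd44* (gene identifier 12505, chromosome 2, 102811141 to 102901669, minus strand) numbered 9849 and 10232 counts in Tc1 against 13191 and 11604 in Tc9 cells. Both Tc9 libraries were above both Tc1 libraries, and the 2 Tc9 libraries differed more from each other than the 2 Tc1 libraries did. The log2 fold change was 0.31 (± 0.11 SE, 95% interval 0.07 to 0.55, edgeR adjusted p = 0.0524), just outside the threshold. The call turned on the processing. *Cd44* passed with DESeq2 (adjusted p = 0.0357) and with scaling by depth alone (edgeR adjusted p = 0.0320). It did not pass with no filter on low counts (edgeR adjusted p = 0.101) or with a block on replicate number (edgeR adjusted p = 0.0798). Its log2 fold change was 0.21 without Tc9 replicate 1 and 0.40 without Tc9 replicate 2. It was 0.27 without Tc1 replicate 1 and 0.34 without Tc1 replicate 2. On the FPKM scale, which allows comparison between genes, *Cd44* lay at 72.1 and 74.6 in Tc1 and 98.5 and 87.6 in Tc9 cells. The ratio of *Cd44* to *Cd69* in FPKM was 2.73 and 3.13 in the Tc1 libraries and 8.74 in each of the Tc9 libraries.

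None of the 17 genes listed around CD44 was reached by all 4 tables. The ligand *Spp1* (osteopontin) had 1032 counts in Tc1 and 51 counts in Tc9 replicate 2, a log2 ratio of -4.34 (95% counting interval -4.77 to -3.93). The genes of the proteins that tie CD44 to the actin cortex were among the most abundant of the list. They were lower in Tc9 replicate 2, with log2 ratios of -0.30 for *Ezr*, -0.16 for *Msn* and -0.22 for *Rdx* and no test. *Ezr* had 18023 and 14651 counts, *Msn* 24210 and 21641, and *Rdx* 7909 and 6807 in the Tc1 and Tc9 replicate 2 libraries. The hyaluronan synthases *Has1* and *Has2* were at 0 in the 3 libraries that reach them.

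**Figure D2:**
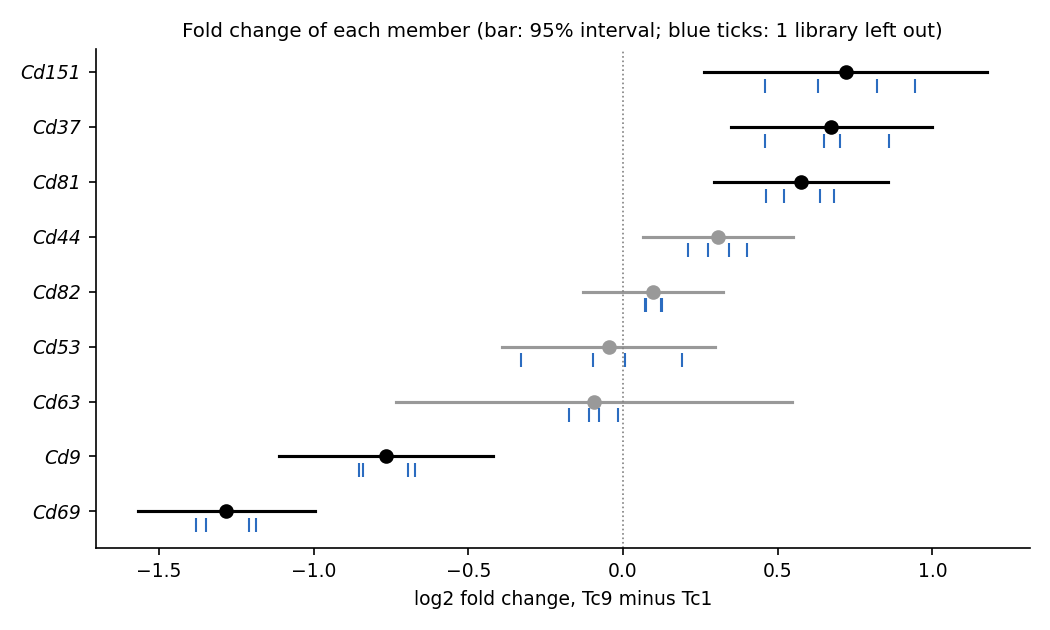
Log2 fold change of each gene, Tc9 minus Tc1 (x axis), with its 95% interval as a bar, black where the adjusted p passed 0.05 and gray where it did not. Blue ticks mark the value with 1 library left out, which crossed 0 for *Cd53* alone.

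Among the leukocyte tetraspanins, *Cd37* rose and *Cd53* did not pass the test. *Cd37* (gene identifier 12493, chromosome 7, 45233632 to 45239340, minus strand), which restrains T cell proliferation, numbered 1777 and 1698 counts in Tc1 against 2377 and 3152 in Tc9 cells. Every Tc9 library was above every Tc1 library, and the 2 Tc9 libraries were 0.41 apart on the log2 scale. *Cd37* rose 1.59-fold (log2 fold change 0.67 ± 0.14 SE, edgeR adjusted p = 0.00664). With Tc1 replicate 1 left out the value was 0.70 (edgeR adjusted p = 0.0546) and with Tc1 replicate 2 left out 0.65 (edgeR adjusted p = 0.0899), so the call needs both Tc1 libraries. In these fits the lone Tc1 library is assumed to vary like the Tc9 libraries.

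*Cd53* (gene identifier 12508, chromosome 3, 106758861 to 106790149, minus strand) numbered 13535 and 14361 counts in Tc1 against 15850 and 11093 in Tc9 cells. The Tc9 libraries lay on either side of the Tc1 libraries. The log2 fold change was -0.05 (± 0.15 SE, 95% interval -0.39 to 0.30, edgeR adjusted p = 0.833). The Tc9 libraries themselves were 0.51 apart on the log2 scale, against a median of 0.22 over all genes tested, and so the direction depended on which was used. The value was -0.33 without Tc9 replicate 1, 0.19 without Tc9 replicate 2 and 0.01 without Tc1 replicate 2. A fit with 1 Tc9 library takes its spread from the Tc1 libraries, so it cannot say how far Tc9 libraries vary.

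*Cd81* and *Cd9*, which share the partner proteins IGSF8 and PTGFRN, moved in opposite directions. *Cd81* (gene identifier 12520, chromosome 7, 143052750 to 143067930, plus strand) numbered 1005 and 918 counts in Tc1 against 1317 and 1542 in Tc9 cells, with the Tc9 libraries above both Tc1 libraries. It rose 1.49-fold (log2 fold change 0.58 ± 0.13 SE, edgeR adjusted p = 0.00714). With Tc1 replicate 1 left out the value was 0.64 (edgeR adjusted p = 0.0778) and with Tc1 replicate 2 left out 0.52 (edgeR adjusted p = 0.179).

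*Cd9* (gene identifier 12527, chromosome 6, 125460266 to 125494760, minus strand) numbered 287 and 322 counts in Tc1 against 169 and 188 in Tc9 cells. Both Tc9 libraries were below both Tc1 libraries. The log2 fold change was -0.77 (± 0.15 SE, 95% interval -1.11 to -0.42, edgeR adjusted p = 0.00472), 1.70-fold higher in Tc1 cells. Without Tc1 replicate 2 it was -0.67 (edgeR adjusted p = 0.0730). The ratio of *Cd81* to *Cd9* in FPKM was 2.93 and 2.38 in Tc1 against 6.52 and 6.86 in Tc9 cells, so the ranges did not overlap. Their shared partners were *Igsf8*, at 594 counts in Tc1 replicate 2 against 484 and 751 in Tc9 cells, and *Ptgfrn*, with 610 and 990 counts in the Tc1 and Tc9 replicate 2 libraries. The *Igsf8* value of Tc1 lay between those of Tc9.

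*Cd151* (gene identifier 12476, chromosome 7, 141467362 to 141471481, plus strand), which binds the laminin-binding integrins, numbered 134 and 116 counts in Tc1 against 171 and 240 in Tc9 cells. The Tc9 libraries were above the Tc1 libraries and 0.48 apart on the log2 scale. It rose 1.65-fold (log2 fold change 0.72 ± 0.20 SE, 95% interval 0.26 to 1.18, edgeR adjusted p = 0.0218). The call was lost with no filter on low counts (edgeR adjusted p = 0.0751) and without Tc1 replicate 2 (log2 fold change 0.63, edgeR adjusted p = 0.148). The integrin chains that pair with CD151 were seen in 3 libraries, with no test. *Itga6* stood at 785 counts in Tc1 replicate 2 against 1295 and 1042 in Tc9 cells, whereas *Itga3* had 265 counts against 180 and 282. *Itgb1* stood at 6545 counts in Tc1 replicate 2 against 5702 and 4615 in Tc9 cells. *Itga4*, whose α4β1 integrin joins CD81 and CD82 in membrane patches, stood at 3419 counts in Tc1 replicate 2 against 1597 and 1540 in Tc9 cells, a log2 ratio of -1.15 between the replicate 2 libraries (95% counting interval -1.24 to -1.06).

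*Cd82* (gene identifier 12521, chromosome 2, 93419102 to 93462950, minus strand), also known as a suppressor of metastasis, was the most even of the abundant tetraspanins. It numbered 9440 and 9649 counts in Tc1 against 9969 and 10404 in Tc9 cells. The groups did not overlap, but the difference was small (log2 fold change 0.10 ± 0.10 SE, 95% interval -0.13 to 0.32, edgeR adjusted p = 0.482). The log2 fold change of *Cd82* was 0.13 without Tc9 replicate 1 and 0.07 without Tc9 replicate 2. *Cd63* (gene identifier 12512, chromosome 10, 128896231 to 128912822, plus strand), which is also carried on melanosomes, numbered 31 and 30 counts in Tc1 against 30 and 27 in Tc9 cells. Its log2 fold change was -0.09 (± 0.29 SE, 95% interval -0.73 to 0.55, edgeR adjusted p = 0.819), and with so few counts a change of a size within that interval was not detectable at this depth. The GENCODE M21 annotation lists the processed pseudogenes *Cd9-ps* and *Cd63-ps*, neither of which is listed in the tables, so reads could have been shared with these copies and the values of *Cd9* and *Cd63* are uncertain in that respect.

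The promoter sequences below are shown for 3 tetraspanins that moved, and for *Cd44*, as the 250 bases before the start of transcription (RefSeq, GRCm38.p6, written 5′ to 3′ on the strand of the gene). Windows were given for 8 of the 9 genes, *Cd69* excepted. Capitals mark matches on either strand to a motif of KLF factors (CACCC), found in 52.0% of 32841 promoter windows, or to a STAT motif (TTC and GAA with 4 bases between), found in 5.85%. The STAT motif with 3 bases between, the AP-1 motif (TGANTCA) and the NF-κB motif (GGGA and CCC with 3 bases between) were found in 7.02%, 6.75% and 4.77% of windows, with no match in these 4. *Cd37* (chr7:45238840-45239089, minus strand) held 3 KLF matches, *Cd81* (chr7:143052500-143052749, plus strand) held 4, of which 2 share a base, and *Cd9* (chr6:125494761-125495010, minus strand) held 1. *Cd44* (chr2:102901666-102901915, minus strand) held 1 STAT match with 4 bases between, as did *Cd53*. Of the windows not shown, the second of *Cd151* held 1 NF-κB and 1 KLF match and the first none, and 2 windows of *Cd82* held 1 KLF match each. A match is a description of the letters and not a binding site.
Cd37: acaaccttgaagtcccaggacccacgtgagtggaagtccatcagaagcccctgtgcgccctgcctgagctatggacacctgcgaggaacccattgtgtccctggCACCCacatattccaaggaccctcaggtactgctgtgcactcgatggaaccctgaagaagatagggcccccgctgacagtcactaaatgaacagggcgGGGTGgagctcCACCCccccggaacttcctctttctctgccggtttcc
Cd81: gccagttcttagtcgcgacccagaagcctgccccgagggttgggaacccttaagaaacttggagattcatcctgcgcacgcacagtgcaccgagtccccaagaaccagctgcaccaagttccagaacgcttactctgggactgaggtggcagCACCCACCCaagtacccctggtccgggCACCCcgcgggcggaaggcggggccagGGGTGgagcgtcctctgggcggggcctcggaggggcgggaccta
Cd9: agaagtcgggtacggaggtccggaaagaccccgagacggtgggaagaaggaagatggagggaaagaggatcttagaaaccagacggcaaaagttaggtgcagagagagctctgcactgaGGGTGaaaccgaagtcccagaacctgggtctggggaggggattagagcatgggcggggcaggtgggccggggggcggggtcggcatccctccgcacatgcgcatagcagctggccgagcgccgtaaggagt
Cd44: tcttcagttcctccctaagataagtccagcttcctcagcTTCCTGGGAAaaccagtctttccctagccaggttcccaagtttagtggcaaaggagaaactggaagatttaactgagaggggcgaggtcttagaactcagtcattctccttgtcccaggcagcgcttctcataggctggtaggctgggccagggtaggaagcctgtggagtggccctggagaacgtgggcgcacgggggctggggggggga

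Per length, the tetraspanins differed widely in level. *Cd82* and *Cd53* were the highest of the 9 genes in Tc1 cells, at 176 and 180 FPKM and at 160 and 169 FPKM. *Cd44*, *Cd37*, *Cd69* and *Cd81* followed, the last at 22.6 and 20.7 FPKM, close below the 26.4 and 23.8 FPKM of *Cd69*. *Cd9*, *Cd151* and *Cd63* were the lowest, and *Cd63* lay at 1.25 and 1.22 FPKM. In Tc9 cells *Cd69* dropped below *Cd81*, at 11.3 and 10.0 FPKM against 30.4 and 35.9 FPKM. Among neighbors in the Tc9 order, *Cd82* and *Cd53* overlapped between libraries, as did *Cd44* and *Cd37*, and *Cd9* and *Cd151*.

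The 7 tetraspanins summed to 421 and 431 FPKM in the Tc1 libraries and 492 and 477 FPKM in the Tc9 libraries. *Cd82* made up 41.8% of that sum in each Tc1 library and 38.7% and 42.1% in Tc9 cells, and *Cd53* 37.9% and 39.2% in Tc1 and 38.9% and 28.3% in Tc9 cells. The share of *Cd37* was 12.2% and 11.4% in Tc1 and 14.3% and 19.7% in Tc9 cells. The share of *Cd9* was 1.83% and 2.02% in Tc1 and 0.948% and 1.10% in Tc9 cells. The sum was larger in both Tc9 libraries than in both Tc1 libraries, and for the shares of *Cd37* and *Cd53* Tc9 replicate 2 lay further from Tc1 than Tc9 replicate 1 did.

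**Figure D3:**
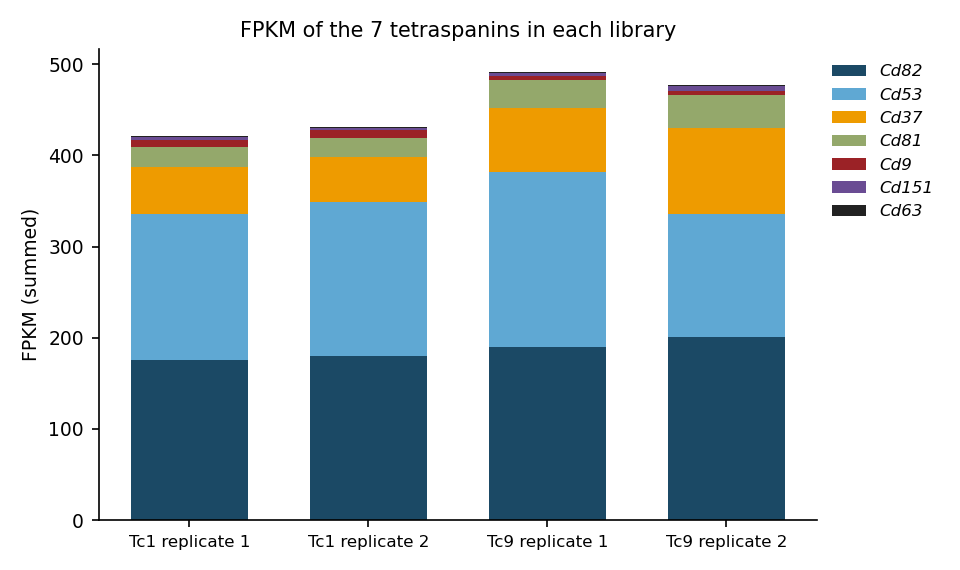
FPKM of the 7 tetraspanins stacked for each Tc1 and Tc9 library (y axis, summed FPKM from 0). *Cd82* and *Cd53* form most of every bar, and the band of *Cd37* is wider in both Tc9 libraries.

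The rest of the family was read from a list of 24 further tetraspanin genes. Only *Tspan9* and *Upk1a* were tested over all 4 libraries. *Tspan9*, known from platelets, numbered 536 and 472 counts in Tc1 against 2583 and 2930 in Tc9 cells. It rose 5.48-fold (log2 fold change 2.45 ± 0.13 SE, edgeR adjusted p = 1.38e-06), a larger log2 fold change than that of any of the 7 tetraspanins above. *Upk1a*, a uroplakin of bladder epithelium, numbered 72 and 70 counts in Tc1 against 33 and 43 in Tc9 cells and fell (log2 fold change -0.90 ± 0.25 SE, edgeR adjusted p = 0.0195). That call was lost with DESeq2 (adjusted p = 0.105) and with either Tc1 library left out (adjusted p = 0.102 and 0.108 in edgeR). Between the replicate 2 libraries 8 more could be seen, of which only *Rom1* reached 100 counts, at 115 and 102. The other 14 were seen in Tc9 replicate 2 alone.

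In that library, whose table is complete, 31 tetraspanin genes could be ranked. *Cd82*, *Cd53* and *Cd37* were the top 3 by FPKM, followed by *Tspan31* (51.5 FPKM), *Tspan13* (40.9 FPKM), *Cd81* (35.9 FPKM) and *Tspan32* (28.2 FPKM), a tetraspanin of blood cells. The 7 tetraspanins described here held 70.6% of the summed FPKM of the family, and 6 of the 31 genes lay at or under 3 counts. *Cd82* stood at percentile 98.0 of all genes listed there, *Cd9* at percentile 50.4 and *Cd63* at percentile 33.9.

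Of 18 partner genes of tetraspanins, 7 were tested over all 4 libraries. None rose and 2 fell, against 17.4% and 16.7% of all genes tested. *Cd2*, the adhesion receptor, numbered 8703 and 9246 counts in Tc1 against 6784 and 6448 in Tc9 cells (log2 fold change -0.44 ± 0.10 SE, edgeR adjusted p = 0.0107). Without either Tc1 library the adjusted p of *Cd2* was 0.162 and 0.346 in edgeR. *Cd36*, a fatty acid receptor that gathers with tetraspanins and integrins, numbered 111 and 118 counts in Tc1 against 17 and 6 in Tc9 cells (log2 fold change -3.30 ± 0.36 SE, edgeR adjusted p = 0.000104). The log2 fold change of *Cd36* was -4.22 without Tc9 replicate 1 and -2.74 without Tc9 replicate 2. *Adam10*, the shedding protease that needs tetraspanins to mature, numbered 4185 and 4090 counts in Tc1 against 5236 and 4181 in Tc9 cells (edgeR adjusted p = 0.275). *Cd8a* and *Cd8b1*, whose products are held near CD81 and CD82 on T cells, did not pass either (adjusted p = 0.520 and 0.0521 in edgeR).

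**Figure D4:**
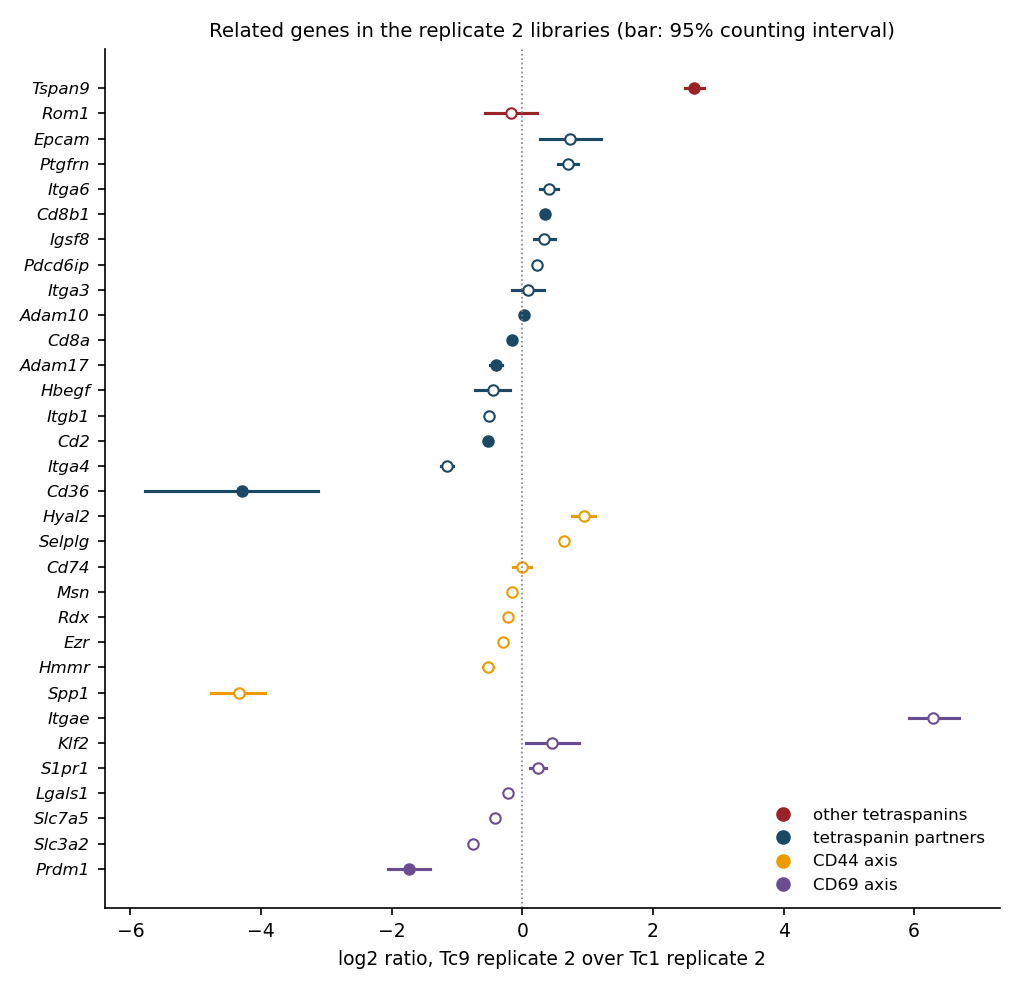
Log2 ratio of Tc9 to Tc1 in the replicate 2 libraries (x axis) for 32 of the related genes with at least 100 counts in one of them, with 95% counting intervals as bars and colors for the gene lists. Filled points mark the 8 genes also tested over all 4 libraries, and *Itgae*, *Tspan9*, *Spp1* and *Cd36* lie furthest from 0.

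The tables list a mean transcript length for each gene, weighted over its transcripts, which moves when the mix of isoforms moves. *Cd44*, a gene known for variable exons in the extracellular stem, had 6 listed transcripts and lengths from 4430 to 4441 bases across the libraries, a range of 0.256% of the mean. *Cd82* with 7 listed transcripts moved by 0.255% and *Cd69* with 2 by 0.932%. The widest range was that of *Cd151*, 2.20% of the mean, with 1832 and 1806 bases in Tc1 and 1792 and 1798 bases in Tc9 cells. In the GENCODE annotation, exons of *Cd9*, *Cd37*, *Cd81* and *Cd151* share 218, 13, 104 and 193 bases with exons of a gene on the opposite strand. Whether reads of the 2 strands were kept apart is not given in the sources used here, so these reads cannot be told apart.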

How the data were processed

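RNA-Seq tables of 2 tumor-infiltrating Tc1 and 2 Tc9 libraries were used. Per the file headers, the authors deposited expected counts (estimated reads per gene, not normalized), FPKM values scaled by gene length and library depth, and a gene length in bases. The submitters' processing notes name mm10. The aligner, the counting program and the strand setting are not given in the sources used here. Each table lists its genes in the order of their identifiers read as text, and 3 of the 4 stop part way. Their last row, which has no line end, was dropped in each of these. Absence of a gene from a range that a table covers was read as 0, and all tables reach the members. Depth was the count divided by FPKM, over well-covered genes of unchanged length, set relative to the complete table.

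Expected counts were rounded and tested two-sided with the quasi-likelihood test of edgeR 4.0.16 (R 4.3.3), using TMM scaling, a filterByExpr filter (minimum count 10), and Benjamini-Hochberg adjustment over all 1284 genes tested. Standard errors and 95% intervals come from that fit, which was tested on simulated data. DESeq2 1.42.0 and limma 3.58.1 were alternatives. An exact permutation test of 2 against 2 libraries cannot go below p = 0.333. Related genes were counted by list. Those tested and past the threshold were named, and so were those seen in the replicate 2 libraries alone with at least 100 counts in one library and a ratio of at least 2-fold. Members and lists were chosen with earlier results of these data known. Replicate counts differed beyond sampling noise, with chi-square values per gene of 4.55 in Tc1 and 43.0 in Tc9, and all 4 libraries were counted separately. Intervals from counts cover counting error only. Results for some listed genes were left out.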

Additional observations from a re-analysis of the deposited data

How the results depend on the processing

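Each library was left out in turn, and the count filter, scaling, test and replicate block were changed one at a time. The limma fits on FPKM changed test, unit and scaling together, and DESeq2 brought its own size factors. The crossed pairing was added after seeing the data. In all, 195 values under these settings neither turned direction nor crossed the threshold (counts stayed within 1.5 times). Values that were not called in either fit are among them. Of the others, 12 lost a call, 10 gained a call, 2 turned direction and 14 counts moved further. *Cd69* passed in every setting run. With no filter on low counts, 139 genes were lower in Tc9 and *Cd151* (log2 fold change 0.72) no longer passed. *Cd44* newly passed at a minimum count of 50 (0.32), with DESeq2 size factors in edgeR (0.32), with depth alone (0.35), in DESeq2 (0.32) and in limma on log2(FPKM + 1) (0.34) and on log2(FPKM + 0.1) (0.34). With no filter on low counts and with the replicate block, *Cd44* stayed outside the threshold (0.31 in each). The cause of the changes in call was not tested.

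With 1 library left out, the spread comes from the other group alone, and the Tc1 libraries lay closer together than the Tc9 libraries. The number of genes higher in Tc9 then ranged from 99 to 424 and the number lower from 74 to 430, and of the 9 genes described 0 to 5 were higher and 1 to 3 lower. The log2 fold changes ranged from -0.85 to -0.67 for *Cd9*, 0.46 to 0.86 for *Cd37*, -0.33 to 0.19 for *Cd53*, 0.46 to 0.68 for *Cd81*, 0.071 to 0.13 for *Cd82*, 0.46 to 0.94 for *Cd151* and 0.21 to 0.40 for *Cd44*. *Cd53* turned to 0.0052 without Tc1 replicate 2 and 0.19 without Tc9 replicate 2. Blocking on replicate number gave 231 genes higher and 213 lower (replicate block), and it changed no call among the 9 genes. Deviations of same-numbered libraries correlated at -0.11 across genes over 2 pairs, and the crossed block gave 247 higher and 228 lower. At these depths 3 counts are 0.0940 to 0.0973 CPM.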
